A study of Mus musculus with 12 samples.

Results

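The genes of serine synthesis and of the folate one-carbon pathway were followed in mouse kidney tubular epithelial cells. They were Phgdh, Psat1, Psph, Shmt1, Shmt2, Mthfd1, Mthfd2, Mthfd1l, Aldh1l2 and Asns, chosen by name and matched through mouse Ensembl identifiers to 10 rows of a raw count table of 55487 genes. All 10 had enough reads to be among the 12897 genes tested. The study compared 4 groups of 3 libraries: cells labelled Nnmt-OE with TGFβ, cells labelled Nnmt-OE without it, mock cells with TGFβ, and mock cells without it. Nnmt encodes nicotinamide N-methyltransferase, which spends the methyl group of S-adenosylmethionine on nicotinamide, and transforming growth factor β (TGFβ) is a cytokine that drives epithelial cells towards fibrotic programs. The TGFβ dose was 10 ng/mL and lasted 48 h. Cells of every group carried the SV40 large T antigen, were expanded under interferon γ (10 ng/mL) at 33 °C, and then spent 7 days at 37 °C after its removal. The constructs were introduced with puromycin selection, and 1 characteristic of the labels spells the overexpressing genotype Nmt-OE. Nothing in the labels says that the libraries of a group came from separate cultures, so each p-value reflects only how much these libraries spread, and that spread may be technical.

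Serine is made from the glycolytic intermediate phosphoglycerate in a short chain of reactions run by Phgdh, Psat1 and Psph. Serine hydroxymethyltransferases then hand a carbon from serine to tetrahydrofolate, in the cytosol (Shmt1) and in mitochondria (Shmt2), and the Mthfd enzymes pass it on as formate or formyl groups for purine, thymidylate and methionine synthesis. In many cells the transcription factor ATF4, which is turned on by amino acid shortage and other stress, raises several of these genes and also Asns, the enzyme that makes asparagine from aspartate and glutamine.

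Reads assigned to genes numbered between 4733846 and 7247413 per library. Levels are given as CPM, the count of a gene scaled to its library's reads in genes with TMM factors. They come from 3′ tags and are not scaled by transcript length. Levels are compared chiefly between libraries, and where genes are ranked, summed or set as a ratio, this refers to their reads. A gene was called changed at a Benjamini-Hochberg adjusted p of at most 0.05 in edgeR's quasi-likelihood test over all 12897 genes. The Nnmt message did not differ between the constructs past that threshold: it averaged 27.6 ± 5.80 CPM in labelled Nnmt-OE cells with TGFβ, against 30.3 ± 2.77 CPM in mock cells with TGFβ (SD, n = 3 each; edgeR adjusted p of 0.998). Without TGFβ it averaged 25.3 ± 2.88 CPM in labelled Nnmt-OE cells and 20.3 ± 3.84 CPM in mock cells (SD, n = 3 each; adjusted p of 0.897). The construct groups are therefore named here by their label. Among markers of tubular epithelium, Pax8, Pax2, Cdh16 and Krt8 were present in every library, whereas Cdh1 and Epcam had 0 reads throughout. The proximal tubule marker genes summed to 813 to 863 CPM in labelled Nnmt-OE cells with TGFβ and 1251 to 1263 CPM without it, and to 719.8 to 799 CPM in mock cells with TGFβ and 943 to 1188 CPM without it. Of those 7 genes, Slc22a6 and Hnf4a were at 0 in all libraries, and Aqp1 gave most of the sum. The 5 fibroblast markers, with Lum at 0 throughout, summed to 9.42 to 14.5 CPM in labelled Nnmt-OE cells with TGFβ and 1.47 to 8.04 CPM without it, and to 6.89 to 10.9 CPM in mock cells with TGFβ and 3.20 to 5.51 CPM without it. Of these 5, Col1a1 alone had enough reads to be tested, at 1.03 to 13.5 CPM over all libraries. Pdgfra, Pdgfrb and Dcn had a median of 0 CPM, so the sum does not describe the fibroblast markers as a group. The part of these marker shifts in the results below was not tested. In bulk samples of this kind, fewer cells of a type and less RNA per cell cannot be told apart. On the principal components, 3 libraries stood apart from the others, each on a different component. Mock replicate 1 did so on component 1 (15.3% of the variance) and mock with TGFβ replicate 3 on component 2 (12.9%). Labelled Nnmt-OE with TGFβ replicate 3 did so on component 3 (11.5%). These 3 libraries were picked by no set rule, and results that rest on them are given without them as well.

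TGFβ went with higher levels of 2 of the 10 genes over both constructs, and all 10 had a positive estimate. Asns rose 1.31-fold and Psat1 rose 1.22-fold in cells with TGFβ against cells without it, averaged over the constructs. The other 8 genes did not pass the threshold, with log2 fold changes between 0.08 for Phgdh and Mthfd1 and 0.56 for Aldh1l2. The median log2 fold change of the 10 was 0.28, set beside -0.0046 for all genes tested, of which 49.2% had a positive estimate. Without the 3 libraries that stood apart, 3 of the 10 were called in the average (Asns, Shmt2 and Mthfd2, and not Psat1). In the same averaged comparison over all libraries 5.08% of all genes were called, 2.48% as higher. Taken by construct, 1 of the 10 (Asns) was called with TGFβ in mock cells, where 1.43% of all genes were called, and 0 of the 10 in labelled Nnmt-OE cells, where 1.4% were called. In labelled Nnmt-OE cells, 3 of the 10 had an unadjusted p under 0.05 in edgeR, as did 11.1% of all genes, and DESeq2 and limma-voom also called 0 of the 10. Libraries with TGFβ all lay above those without it for 6 of the 10 genes in labelled Nnmt-OE cells (8.7% of all genes) and for 4 of the 10 in mock cells (7.78% of all genes). The construct itself was followed by no called change in any of the 10.

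**Figure D1:**
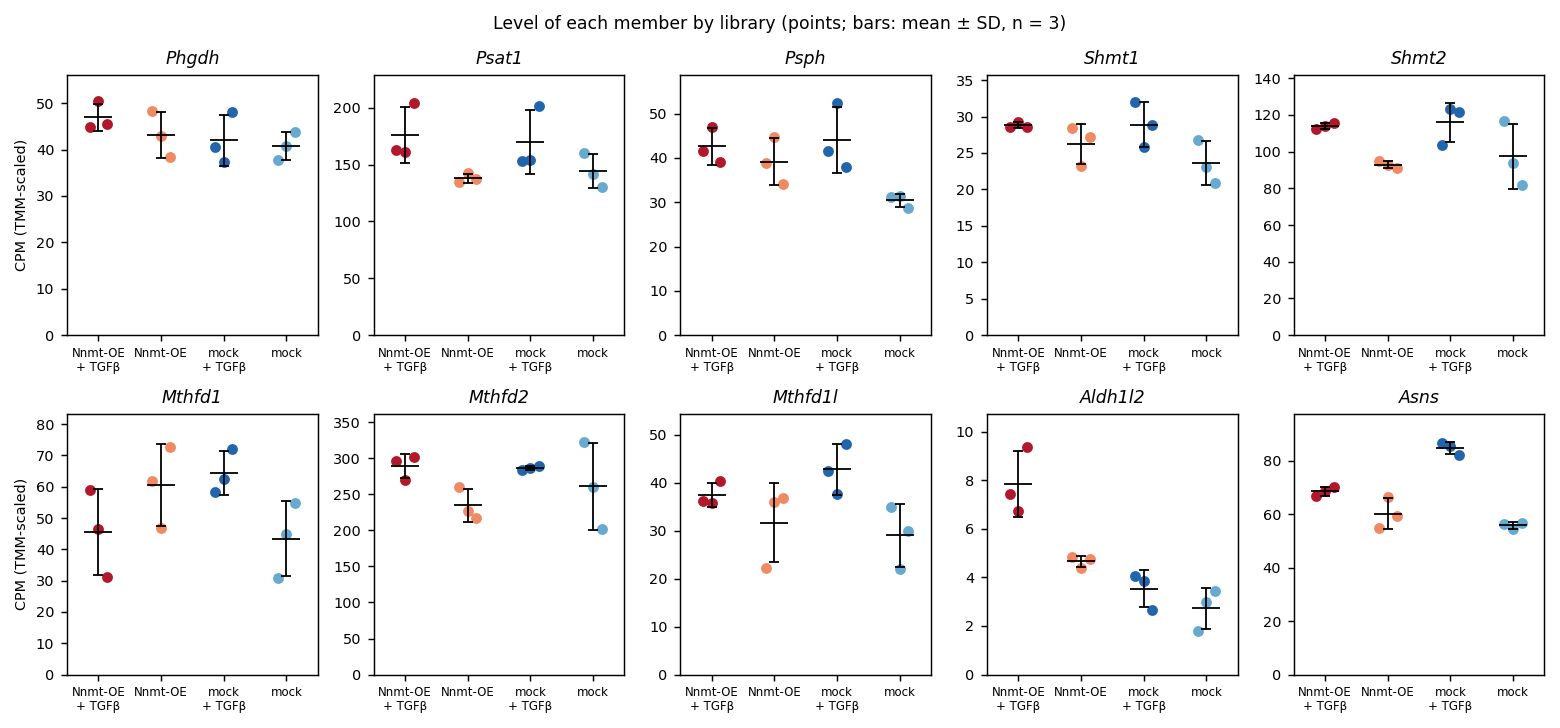
TMM-scaled CPM of each of the 10 genes (y axis, from 0) in the 4 groups (x axis), with a point for each library and a bar for mean ± SD, n = 3. Asns in mock cells with TGFβ sits between 82.2 and 86.6 CPM, above all other libraries, while Phgdh with and without TGFβ overlaps under both constructs.

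The serine synthesis genes differed in how they moved. Phgdh, which oxidises phosphoglycerate in the committed step, had 45.0, 50.4 and 45.5 CPM in labelled Nnmt-OE replicates 1 to 3 with TGFβ, and 48.2, 42.8 and 38.4 CPM in labelled Nnmt-OE cells without it. Mock cells had 40.6, 37.2 and 48.1 CPM with TGFβ, and 37.8, 40.7 and 43.8 CPM without it. Cells with and without TGFβ overlapped under both constructs, and the averaged TGFβ effect of Phgdh was 0.08 ± 0.12 on the log2 scale (SE), with a 95% interval from -0.16 to 0.31.

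Psat1, the aminotransferase that moves an amino group from glutamate onto the intermediate made by Phgdh, had 162, 161 and 205 CPM in labelled Nnmt-OE cells with TGFβ, against 135, 142 and 138 CPM in labelled Nnmt-OE cells without it. These groups did not overlap. In mock cells Psat1 had 153, 154 and 202 CPM with TGFβ, against 160.2, 142 and 130.4 CPM without it, and these groups overlapped. The averaged log2 fold change was 0.29 ± 0.08 (SE), with an edgeR adjusted p of 0.0257. The highest value of each TGFβ group came from the replicate 3 library that stood apart, and the call rested on such libraries. Without labelled Nnmt-OE with TGFβ replicate 3 the adjusted p was 0.128, and without mock with TGFβ replicate 3 it was 0.103. Leaving out mock replicate 2, mock replicate 3, labelled Nnmt-OE replicate 1 or labelled Nnmt-OE replicate 3 also ended the call, with adjusted p between 0.0515 and 0.0746. Without the 3 libraries that stood apart the log2 fold change of Psat1 was 0.20, with an adjusted p of 0.115.

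Psph removes the phosphate to release serine. It had 41.6, 47.1 and 39.0 CPM in labelled Nnmt-OE cells with TGFβ, against 38.8, 44.7 and 34.0 CPM without it. Mock cells had 41.6, 52.3 and 38.0 CPM with TGFβ, against 31.1, 31.4 and 28.8 CPM without it. Mock cells without TGFβ were the lowest group and overlapped no other group. The estimate for TGFβ in mock cells was 1.45-fold (95% interval 1.13 to 1.86), and it did not pass the threshold, with an edgeR adjusted p of 0.140.

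Among the cytosolic folate enzymes, Shmt1 varied little. It had 28.6, 29.2 and 28.6 CPM in labelled Nnmt-OE cells with TGFβ, against 28.4, 23.2 and 27.3 CPM without it, groups that were apart by a narrow margin. In mock cells Shmt1 had 31.9, 25.8 and 28.8 CPM with TGFβ, against 26.8, 23.1 and 20.9 CPM without it, which overlapped. Its averaged TGFβ effect was 0.21 on the log2 scale, with a 95% interval from -0.07 to 0.50.

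Mthfd1 encodes the cytosolic enzyme that joins formate to tetrahydrofolate and interconverts the folate forms that carry the carbon. Its levels were 58.8, 46.6 and 31.3 CPM in labelled Nnmt-OE cells with TGFβ, and 62.0, 46.8 and 72.8 CPM in labelled Nnmt-OE cells without it. In mock cells they were 58.4, 62.6 and 72.1 CPM with TGFβ, against 30.7, 44.8 and 54.7 CPM without it. The groups were apart in mock cells, and overlapped in labelled Nnmt-OE cells. The lowest 2 of its 12 values came from mock replicate 1 and from labelled Nnmt-OE with TGFβ replicate 3, libraries that stood apart. The TGFβ estimates were -0.40 ± 0.21 in labelled Nnmt-OE cells and 0.57 ± 0.21 in mock cells on the log2 scale (SE), and neither was called (adjusted p of 0.513 and 0.237). Without the 3 libraries that stood apart they were -0.19 in labelled Nnmt-OE cells and 0.28 in mock cells.

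The mitochondrial enzymes had their highest group means in cells with TGFβ, as did each of the other genes followed here. Shmt2, which transfers the carbon of serine to folate inside mitochondria, had 112, 114 and 116 CPM in labelled Nnmt-OE cells with TGFβ, against 94.7, 92.6 and 90.9 CPM without it. Those groups did not overlap, and their SDs were 1.67 and 1.90 CPM. In mock cells Shmt2 had 104, 123 and 121 CPM with TGFβ, against 117, 94.0 and 81.5 CPM without it. The averaged effect of TGFβ on Shmt2 was 1.21-fold (95% interval 1.07 to 1.37), just outside the threshold at an edgeR adjusted p of 0.0537. Mock replicate 1 held the highest value of its group, and without that library the log2 fold change of Shmt2 was 0.35, with an adjusted p of 0.00502. Leaving out mock with TGFβ replicate 1 also brought Shmt2 past the threshold, with an adjusted p of 0.0399, as did leaving out the 3 libraries that stood apart, at 0.33 with an adjusted p of 0.0146. The lowest estimate as each library was left out was 0.22, without mock replicate 3, with an adjusted p of 0.171.

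Mthfd2, the dehydrogenase and cyclohydrolase that oxidises the folate-bound carbon in mitochondria, had 297, 269.99 and 301 CPM in labelled Nnmt-OE cells with TGFβ, against 261, 227 and 217 CPM without it, which did not overlap. In mock cells it had 284, 287 and 289 CPM with TGFβ, against 323, 259.6 and 201 CPM without it. The mock libraries without TGFβ spanned both sides of those with it, and mock replicate 1 was the highest of all 12. The averaged TGFβ effect on Mthfd2 was 0.22 ± 0.08 (log2, SE), with an adjusted p of 0.124. Without mock replicate 1 it was 0.31 with an adjusted p of 0.00206, and without the 3 libraries that stood apart it was 0.29 with an adjusted p of 0.00513. Without mock replicate 3, the lowest of that group, it was 0.14 with an adjusted p of 0.336.

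Mthfd1l, the mitochondrial synthetase that releases the carbon as formate, had 36.2, 35.8 and 40.2 CPM in labelled Nnmt-OE cells with TGFβ, against 22.2, 35.9 and 36.8 CPM without it. Mock cells had 42.5, 37.7 and 48.1 CPM with TGFβ, against 35.0, 22.1 and 29.9 CPM without it, and the mock groups did not overlap. Its averaged effect was 1.32-fold (95% interval 1.08 to 1.60), with an adjusted p of 0.0989. Leaving out mock replicate 1 alone gave a log2 fold change of 0.48 and an adjusted p of 0.0416. Leaving out labelled Nnmt-OE replicate 1, the lowest of its group, gave 0.30 and an adjusted p of 0.293, and leaving out the 3 libraries that stood apart gave 0.40 and an adjusted p of 0.128.

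Aldh1l2, which oxidises the formyl group of mitochondrial folate to carbon dioxide while reducing NADP, was the least abundant of the 10, with 10 to 45 reads per library. It had 7.44, 6.75 and 9.38 CPM in labelled Nnmt-OE cells with TGFβ, against 4.82, 4.40 and 4.76 CPM without it. Mock cells had 4.06, 3.86 and 2.65 CPM with TGFβ, against 1.78, 2.97 and 3.43 CPM without it. TGFβ groups were apart in labelled Nnmt-OE cells and overlapped in mock cells. The averaged TGFβ effect was 0.56 ± 0.36 (log2, SE), with a 95% interval from -0.16 to 1.29 that a count this low left wide.

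Asns was the one gene of the 10 called within a single construct. It had 66.8, 68.5 and 70.1 CPM in labelled Nnmt-OE cells with TGFβ, against 54.7, 66.3 and 59.4 CPM without it. In mock cells it had 86.6, 85.4 and 82.2 CPM with TGFβ, against 56.3, 54.3 and 56.7 CPM without it. All 6 libraries with TGFβ lay above all 6 without it, a pattern that 1.47% of all genes tested showed in that direction. The margin was narrow in labelled Nnmt-OE cells, at 66.8 CPM in replicate 1 with TGFβ against 66.3 CPM in replicate 2 without it. In mock cells Asns rose 1.52-fold (95% interval 1.26 to 1.83), with an edgeR adjusted p of 0.00769. In labelled Nnmt-OE cells the estimate was 1.14-fold (0.944 to 1.37), which was not called at an adjusted p of 0.675. The averaged log2 fold change of 0.39 ± 0.09 (SE) had an adjusted p of 0.00638. Both calls held in all 12 fits that left out 1 library each, with adjusted p of at most 0.0476 in mock cells and 0.0269 in the average. Without the 3 libraries that stood apart they held as well, at 0.63 in mock cells (adjusted p of 0.0195) and 0.40 in the average (adjusted p of 0.0113). In order of mean level the groups ran from mock with TGFβ through labelled Nnmt-OE with TGFβ and labelled Nnmt-OE to mock. The first 2 neighbouring pairs in that order did not overlap, labelled Nnmt-OE with and without TGFβ by that narrow margin only, and the last pair did.

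**Figure D2:**
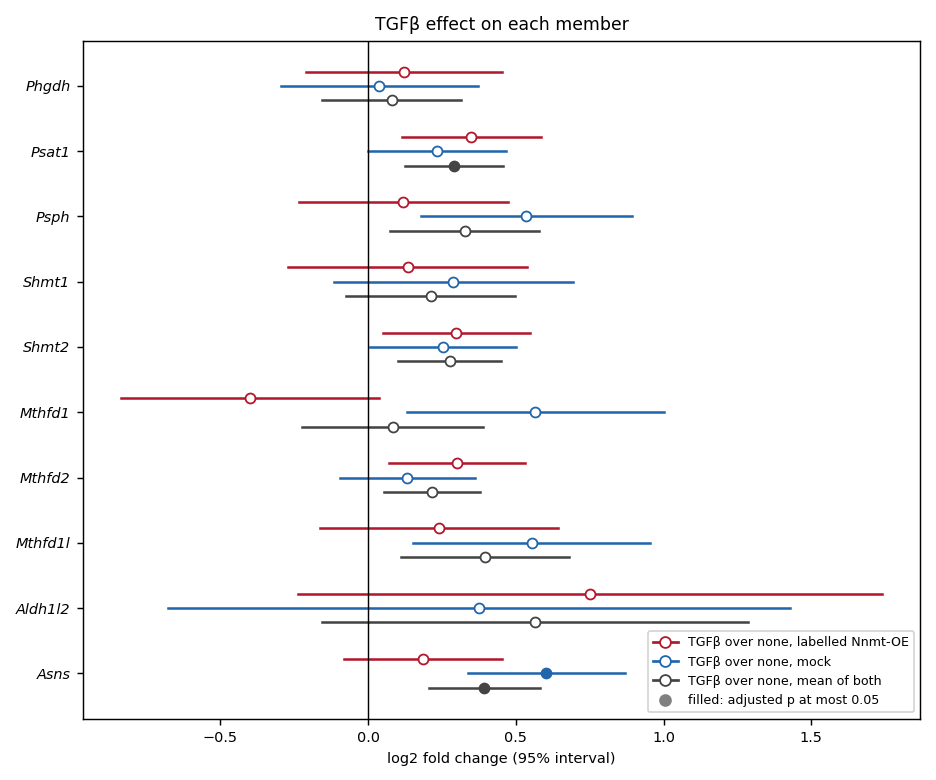
Log2 fold change of each of the 10 genes with TGFβ over without it (x axis), in labelled Nnmt-OE cells, in mock cells and averaged over both, with 95% intervals. Filled points passed an adjusted p of 0.05: Asns in mock cells and in the average, and Psat1 in the average.

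The promoter regions of the 2 genes called with TGFβ, and of Phgdh at the head of the serine chain, are shown to set their sequence beside these values. They are RefSeq sequences of build GRCm38.p6, from 250 bases before to 50 after the annotated start, read 5′ to 3′ along the gene, all on the minus strand: chr6:7693160-7693459 for Asns, chr19:15925010-15925309 for the first of the annotated Psat1 starts, and chr3:98339920-98340219 for Phgdh. Capitals mark matches to TGATGNAA (the composite element bound by C/EBP and ATF proteins), GTTACA (a nutrient response element known from ASNS in human cells) and CCAAT.
Asns: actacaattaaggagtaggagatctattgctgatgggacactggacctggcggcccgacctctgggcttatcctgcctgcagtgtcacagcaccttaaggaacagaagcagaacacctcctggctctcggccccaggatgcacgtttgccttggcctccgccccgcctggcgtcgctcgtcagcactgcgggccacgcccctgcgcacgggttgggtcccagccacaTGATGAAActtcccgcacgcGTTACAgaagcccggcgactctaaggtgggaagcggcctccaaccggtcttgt
Psat1: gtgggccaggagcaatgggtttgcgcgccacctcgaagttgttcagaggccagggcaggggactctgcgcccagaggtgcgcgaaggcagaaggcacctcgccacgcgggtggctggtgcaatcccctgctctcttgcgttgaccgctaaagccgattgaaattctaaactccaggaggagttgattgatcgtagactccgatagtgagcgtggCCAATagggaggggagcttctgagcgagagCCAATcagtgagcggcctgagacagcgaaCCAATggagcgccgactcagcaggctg
Phgdh: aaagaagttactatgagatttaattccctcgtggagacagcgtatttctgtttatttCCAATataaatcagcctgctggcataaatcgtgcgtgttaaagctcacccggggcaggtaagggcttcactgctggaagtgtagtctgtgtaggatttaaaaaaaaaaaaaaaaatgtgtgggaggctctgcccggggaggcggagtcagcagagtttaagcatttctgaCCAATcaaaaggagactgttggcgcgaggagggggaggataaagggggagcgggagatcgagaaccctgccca
On either strand, TGATGNAA was present in Asns and in no other of the 9 genes with a promoter in the table, and in 3.97% of 32851 mouse promoters of the same length. In Asns it began at position -23 from the start. GTTACA likewise occurred in Asns alone among the 9, at position -3, and in 8.25% of all promoters. CCAAT was present in 6 of the 9 genes, against 37.4% of all promoters, with 3 matches in Psat1 and 2 in Phgdh. The E-box CACGTG was in 0 of the 9, against 7.15% of all promoters. No 2 motifs overlapped in the sequences shown, and a match is a description of the letters only. Aldh1l2 had no entry.

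Between constructs, none of the 10 genes was called in either treatment or in the average. All-gene background was low there too: 0.0233% of genes were called with TGFβ, 0.0388% without it and 0.0698% in the average. With TGFβ, 3 of the 10 had an unadjusted p under 0.05 in edgeR (Aldh1l2, Asns and Mthfd1), where 4.46% of all genes did. Without TGFβ, 2 of the 10 did (Psph and Mthfd1), where 5.84% of all genes did. In the average 1 of the 10 did (Aldh1l2), where 6.23% of all genes did. DESeq2 and limma-voom called 0 of the 10 as well. With TGFβ, 1 of the 10 genes was higher without overlap (Aldh1l2, 5.27% of all genes) and 1 lower (Asns, 4.95% of all genes), and without TGFβ, 2 were higher (Psph and Aldh1l2, 5.64% of all genes). The median log2 fold change of the 10, labelled Nnmt-OE over mock, was -0.01 with TGFβ and 0.12 without it.

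Aldh1l2 stood highest in labelled Nnmt-OE cells. It averaged 7.86 ± 1.37 CPM in labelled Nnmt-OE cells with TGFβ and 3.53 ± 0.764 CPM in mock cells with TGFβ, and 4.66 ± 0.227 CPM in labelled Nnmt-OE cells without it and 2.73 ± 0.854 CPM in mock cells without it (SD, n = 3 each). All 6 labelled Nnmt-OE libraries lay above all 6 mock libraries, which 0.132% of all genes tested did in that direction. The margin was narrow. Labelled Nnmt-OE replicate 2 had 4.40 CPM from 30 reads, and mock with TGFβ replicate 1 had 4.06 CPM from 29 reads. Before scaling to library size, the reads of the labelled Nnmt-OE and mock libraries overlapped. The averaged estimate was 1.94-fold (95% interval 1.18 to 3.21), with an unadjusted p of 0.0106 in edgeR and an adjusted p of 0.690, so it was not called. It ranged from 0.84 to 1.07 on the log2 scale over the fits that left out 1 library each, and was 0.69 without the 3 libraries that stood apart. The library codes of the groups do not interleave, so handling and group cannot be told apart here.

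Asns had an estimate of the opposite sign under TGFβ. It averaged 68.5 ± 1.65 CPM in labelled Nnmt-OE cells with TGFβ and 84.7 ± 2.27 CPM in mock cells with TGFβ (SD, n = 3 each), which did not overlap. The log2 estimate was -0.31 ± 0.13 (SE), with an unadjusted p of 0.0232 and an adjusted p of 0.998 in edgeR. Without TGFβ the Asns groups overlapped, at 60.1 ± 5.85 CPM in labelled Nnmt-OE cells and 55.8 ± 1.29 CPM in mock cells.

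**Figure D3:**
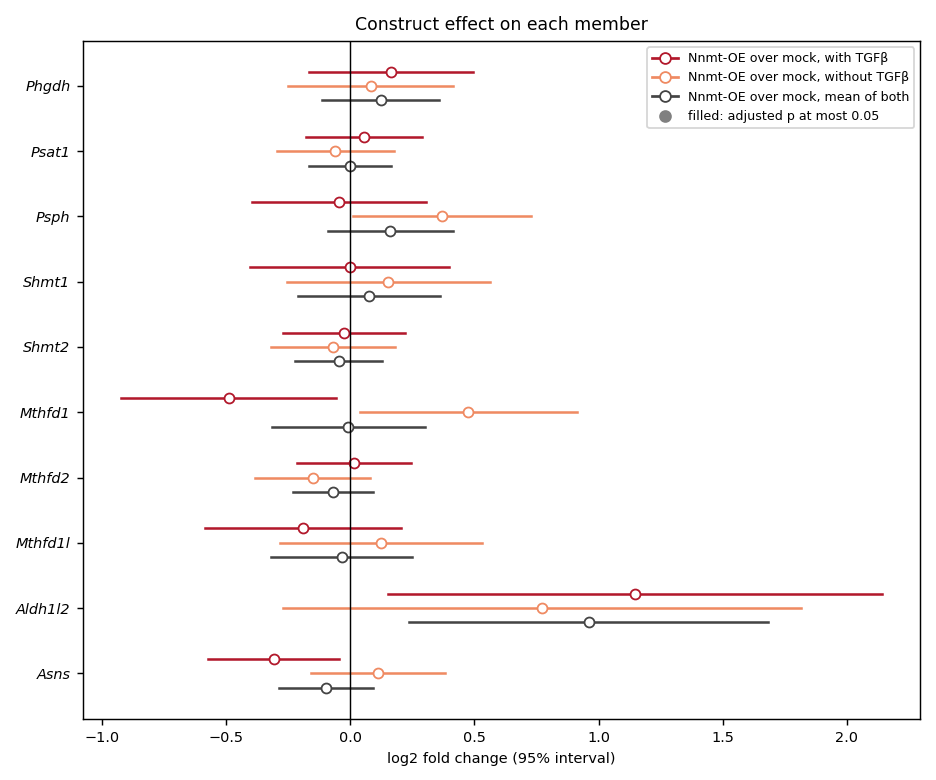
Log2 fold change of each of the 10 genes in labelled Nnmt-OE over mock cells (x axis), with TGFβ, without TGFβ and averaged over both, with 95% intervals. No point is filled, since none passed an adjusted p of 0.05, and Aldh1l2 lies farthest to the right at 1.15, 0.77 and 0.96.

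Whether TGFβ acted differently in the constructs was tested as an interaction, and edgeR called 0 of 12897 genes (501, or 3.88%, had an unadjusted p under 0.05), as did each fit that left out 1 library, DESeq2 and limma-voom. Mthfd1 had the smallest p of the 10, with a difference of -0.97 ± 0.30 on the log2 scale (SE), an unadjusted p of 0.00355 and an adjusted p of 0.999. It was -0.47 without the 3 libraries that stood apart. For Asns the difference was -0.42 ± 0.19 (SE), with an unadjusted p of 0.0310, and it was -0.46 without those libraries. The call of Asns in mock cells and not in labelled Nnmt-OE cells is thus not shown to be a difference between them.

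The reads of the mitochondrial enzymes were also set against those of their cytosolic partners in each library. The ratio of Mthfd2 to Mthfd1 reads was 5.04, 5.80 and 9.63 in labelled Nnmt-OE cells with TGFβ, and 4.20, 4.86 and 2.98 in labelled Nnmt-OE cells without it. In mock cells it was 4.85, 4.58 and 4.00 with TGFβ, and 10.5, 5.80 and 3.68 without it. The highest 2 ratios were those of mock replicate 1 and labelled Nnmt-OE with TGFβ replicate 3, which stood apart. The ratio of Shmt2 to Shmt1 reads kept to a narrower range, from 3.25 to 4.77 over the 12 libraries with a median of 3.96. The 10 genes together took 652 to 932 CPM.

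**Figure D4:**
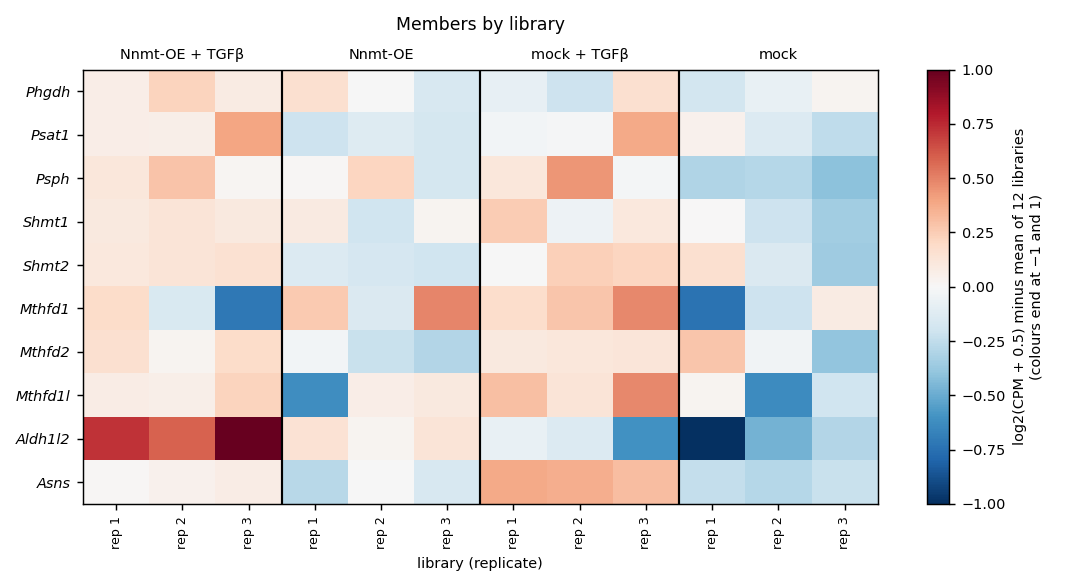
Log2(CPM + 0.5) of each of the 10 genes (rows) in each library (columns, by group and replicate), minus the mean of the 12 libraries, with colours that end at -1 and 1. Asns is highest in the 3 mock libraries with TGFβ, Aldh1l2 is highest in labelled Nnmt-OE with TGFβ, and Mthfd1 is low in mock replicate 1 and in labelled Nnmt-OE with TGFβ replicate 3.

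Once each group's mean was subtracted, the 10 genes did not vary as a block. Of 45 pairs, 17 had a positive Pearson r over the 12 libraries, with a median of -0.12. The mitochondrial partners Shmt2 and Mthfd2 had the highest r (0.83), and Shmt2 and Aldh1l2 had the lowest (-0.74). These values share library and depth, rest on 12 libraries of which 3 stood apart, and are a description only. Over 9125 genes with a mean of at least 10 CPM, those closest to Asns by the same measure were Msh6 (r = 0.96), Snx12 and Txndc17 (0.95 each). Closest to Psat1 were Rbfox2, Sys1 and Med13l (0.94 each), and closest to Mthfd2 were Smyd2 (0.97), Golga1 (0.96) and Kpna1 (0.94). For Aldh1l2 they were Aqp1 (0.97), Ppp4r2 and 6330403L08Rik (0.96 each), and for Shmt2 they were Lamp2 (0.96), Ptma and Nxf1 (0.94 each). Phgdh was closest to Usp1 (0.95), Elof1 and Tank (0.91 each), and Psph to Rsf1 (0.97), Trip13 (0.91) and Mrps15 (0.89). Shmt1 was closest to Irf9 (0.93), Rnps1 and Sdf4 (0.91 each), Mthfd1 to Cbx8 (0.93), Susd6 and Usb1 (0.91 each), and Mthfd1l to Ppip5k1 (0.94), Selenoo (0.93) and Nae1 (0.91). These are the 3 highest of 9125 values for each gene, so they are high by selection, and no link was tested. Without subtraction of group means, r for the same pairs ranged from -0.32 (Psph and Rsf1) to 0.89 (Mthfd1 and Cbx8).

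Purine and thymidylate synthesis use the folate-bound carbon. Of 20 genes of de novo purine and pyrimidine synthesis, 6 rose with TGFβ in the average over constructs, 0 fell, and the median log2 fold change was 0.22. Over all genes tested, 2.48% were called higher and 2.6% lower in that comparison, and 16.6% had an unadjusted p under 0.05 in edgeR in either direction. These shares are the background for each list that follows. Cad, which starts pyrimidine synthesis, had 109, 115 and 130.3 CPM in labelled Nnmt-OE cells with TGFβ, against 83.4, 73.5 and 80.1 CPM without it. In mock cells Cad had 102, 114 and 122 CPM with TGFβ, against 78.7, 96.3 and 77.1 CPM without it. All 6 libraries with TGFβ were above all 6 without it, and the averaged log2 fold change was 0.50 ± 0.09 (SE; edgeR adjusted p of 0.00016). Impdh1, which commits inosine monophosphate to guanine nucleotides, rose by 0.73 ± 0.14 (adjusted p of 0.0007). Gart, which uses formyl folate to build the purine ring, rose by 0.37 ± 0.08 (adjusted p of 0.00148), and Ctps, which makes cytidine triphosphate, by 0.37 ± 0.08 (adjusted p of 0.00464). Between 5 and 6 genes of this list were called as each library was left out, and 5 without the 3 libraries that stood apart. Atic, which adds the last formyl carbon of the purine ring, rose by 0.33, but was called in 6 of the 12 fits that left out a library and not without the 3 that stood apart, where its adjusted p was 0.0965. Within single constructs, Cad was called in labelled Nnmt-OE cells (0.58, adjusted p of 0.00625) and Impdh1 in mock cells (0.85, adjusted p of 0.0167). The Cad call was lost without labelled Nnmt-OE replicate 2 or labelled Nnmt-OE with TGFβ replicate 3, and the Impdh1 call without mock replicate 1 or mock with TGFβ replicate 2 or 3.

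**Figure D5:**
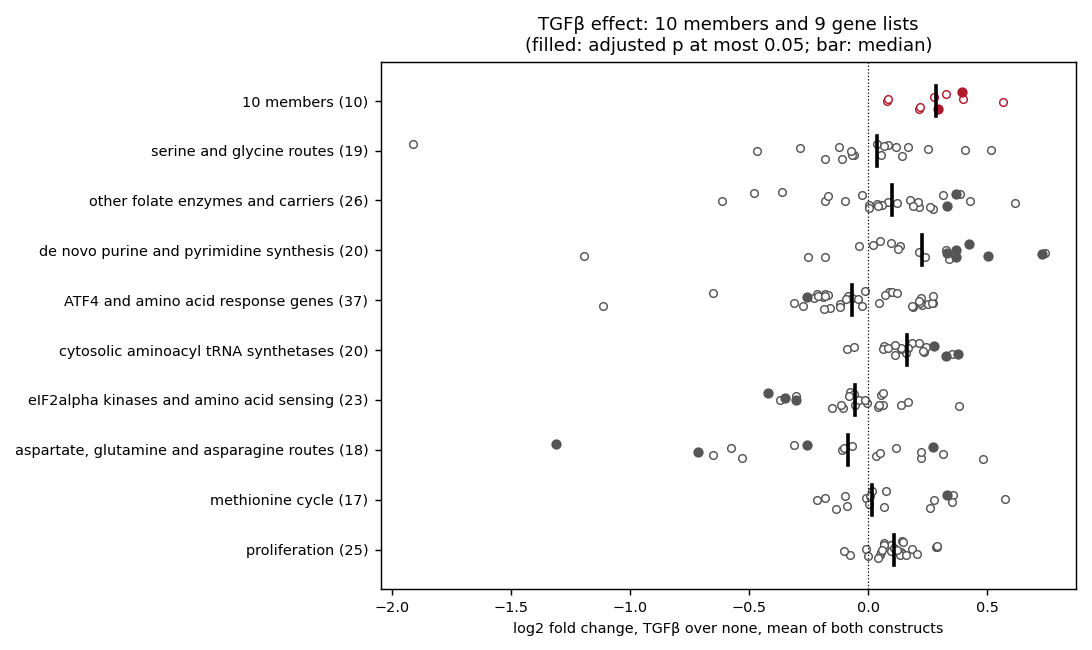
Log2 fold change with TGFβ over without it, averaged over constructs (x axis), for the 10 genes and for each tested gene of 9 pathway lists (rows, with the number tested in brackets). Filled points passed an adjusted p of 0.05, bars are medians, and the filled points of purine and pyrimidine synthesis all lie to the right of 0.

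Of 26 tested genes for other folate enzymes and carriers, 2 rose with TGFβ in the average (Gart and Atic, both also in the purine list), 0 fell, and the median was 0.10. Between 1 and 3 of them were called as each library was left out, and 1 without the 3 libraries that stood apart. The other routes of serine and glycine had 0 of 19 called in edgeR, DESeq2 or limma-voom and a median of 0.04, with 1 higher and 1 lower at an unadjusted p under 0.05. Their smallest p-values belonged to Srr, which makes D-serine, at -0.47 (adjusted p of 0.0947) and to Gatm, which uses glycine for creatine, at 0.51 (adjusted p of 0.121). In the methionine cycle 1 of 17 genes rose, Srm, which makes spermidine, at 0.33 (adjusted p of 0.0275), and 0 fell, a share near the 5.08% of all genes called in either direction. Srm was called in 6 of the 12 fits that left out a library, and its loss followed mock replicate 3, mock with TGFβ replicate 1, labelled Nnmt-OE replicates 2 and 3, and labelled Nnmt-OE with TGFβ replicates 1 and 2. Nnmt, which is on that list, had the next smallest p, at 0.35 (adjusted p of 0.207).

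A list of other ATF4 and amino acid response genes had 37 that were tested. It left out the genes followed above, among them Asns and Psat1, both called higher in the average of TGFβ effects. Its counts therefore describe the remaining genes and not the ATF4 response as a whole. In that average 0 of the 37 rose and 1 fell in edgeR, and the median was -0.07. At an unadjusted p under 0.05 there were 3 higher and 5 lower, while DESeq2 called 1 higher and 2 lower, and limma-voom 1 higher and 1 lower. The gene that fell was Got1, which makes aspartate in the cytosol, by 0.26 on the log2 scale (adjusted p of 0.0230), a call kept in 7 of the 12 fits that left out a library. Without the 3 libraries that stood apart, Got1 had an adjusted p of 0.0766, and 1 gene of the list rose and 1 fell. Vldlr was called in labelled Nnmt-OE cells alone, at -0.43 (adjusted p of 0.0455), in 4 of the 12 such fits. Atf4 itself averaged 761 ± 85.0 CPM in labelled Nnmt-OE cells with TGFβ, against 698 ± 53.5 CPM without it, and 780.4 ± 74.1 CPM in mock cells with TGFβ, against 756 ± 53.4 CPM without it (SD, n = 3 each). Its averaged log2 fold change was 0.09, with an adjusted p of 0.544.

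Cytosolic aminoacyl tRNA synthetases, which load amino acids onto tRNA, had 3 of 20 genes higher with TGFβ in the average, 0 lower, and a median of 0.16. They were Lars for leucine at 0.37 (adjusted p of 0.00403), Kars for lysine at 0.33 (adjusted p of 0.00731) and Tars for threonine at 0.27 (adjusted p of 0.0260). None of these 3 was on the list of ATF4 and amino acid response genes, though Rars, for arginine, was on both lists. Between 2 and 4 were called as each library was left out, and 5 without the 3 libraries that stood apart, where Lars was at 0.21 with an adjusted p of 0.0800. Lars was also called in mock cells, at 0.45 (adjusted p of 0.0437) in 5 of the 12 fits that left out a library and at 0.18 without the 3 that stood apart. Dars, for aspartate, was called in labelled Nnmt-OE cells at 0.72 (adjusted p of 0.0380), in 7 of the 12 fits.

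The routes of aspartate, glutamine and asparagine, which supply and use what Asns handles, had 1 of 18 genes higher and 3 lower, with a median of -0.09. Glul, which makes glutamine, averaged 16.6 ± 1.83 CPM in labelled Nnmt-OE cells with TGFβ and 28.7 ± 7.59 CPM without it, and 15.8 ± 3.54 CPM in mock cells with TGFβ and 24.7 ± 4.96 CPM without it (SD, n = 3 each). The averaged log2 fold change of Glul was -0.72 ± 0.17 (SE; adjusted p of 0.00696), a call kept in all 12 fits that left out a library. Aspg, an asparaginase gene, fell by 1.31 on the log2 scale (adjusted p of 0.0212, called in 7 of those fits). Got1 was the other gene that fell. Between 0 and 1 of the list were called higher and between 1 and 3 lower as each library was left out, with 1 lower without mock with TGFβ replicate 2 or labelled Nnmt-OE replicate 1.

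A list of genes for amino acid sensing and eIF2α kinases, which also held the transcription factors Nfe2l2 and Myc, had 0 of 23 higher and 3 lower. Its median was -0.05, and Nfe2l2 was 1 of the 3. Nfe2l2, the transcription factor of the oxidative stress response, fell by 0.42 on the log2 scale (adjusted p of 0.000663) with no overlap between the libraries with and without TGFβ. Fnip1, a partner of folliculin, fell by 0.35 (adjusted p of 0.00916) and was not called without labelled Nnmt-OE replicate 1. Sesn3, a sestrin, fell by 0.31 (adjusted p of 0.0498) and was called in 2 of the 12 fits that left out a library. Of 25 proliferation genes 0 were called in the average in edgeR or limma-voom and 1 in DESeq2, with a median of 0.11. At an unadjusted p under 0.05 in edgeR 5 were higher and 0 lower, where 16.6% of all genes were in either direction. The smallest p-values were those of Cdk1 at 0.28 (adjusted p of 0.0772) and Ccne1 at 0.29 (adjusted p of 0.118). Cdk1 was called in mock cells, at 0.51 (adjusted p of 0.0497) in 4 of the 12 such fits, where it averaged 291 ± 31.6 CPM with TGFβ and 205 ± 47.8 CPM without it (SD, n = 3 each). Between constructs, 0 of the 190 tested genes of the 9 lists were called in either treatment or in the average, by edgeR, DESeq2 or limma-voom. At an unadjusted p under 0.05 in edgeR, 5 of the 190 were higher and 4 lower with TGFβ, where 4.46% of all genes passed. Without TGFβ, 6 were higher and 7 lower (5.84% of all genes), and in the average 10 were higher and 7 lower (6.23% of all genes).

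Exons of 5 of the 10 genes overlap a gene on the opposite strand in GENCODE M21. The strand setting of the counting is not given in the sources used here. Reads set aside as ambiguous between genes were 0.603 to 0.679% of a library. Whether the 5 genes lost reads in this way, or were counted with reads of the partner, was not tested. For Psph the partner was Cct6a, a chaperonin gene at 350.5 CPM that itself rose with TGFβ by 0.24 on the log2 scale (adjusted p of 0.0138). For Aldh1l2 it was D10Wsu102e at 55.6 CPM, whose estimates were 0.19 for TGFβ (adjusted p of 0.426) and -0.01 for the construct. Smcr8 at 18.5 CPM overlapped Shmt1, Ndufa4l2 at 0.297 CPM overlapped Shmt2, and Gm47525 at 0.078 CPM overlapped Mthfd1. The values of these 5 genes are uncertain to that extent. Asns, Psat1, Phgdh, Mthfd2 and Mthfd1l had no such partner, and the pseudogene Phgdh-ps1 had 0 reads.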

How the data were processed

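Libraries were made from 100 ng of RNA with QuantSeq forward, per the labels' protocols, a kit that reads about 1 tag near the 3′ end of each transcript. The authors deposited raw counts of reads per gene for 12 libraries. STAR and HTSeq are named, with no version, in the submitters' processing notes, which also name build GRCh38 although the gene identifiers are mouse. The mouse build, the annotation and the strand setting were not stated in the sources used here. No molecular identifiers are stated, so precision covers the counting of reads only. Rows for unassigned reads were dropped, the largest being reads outside genes (26.4 to 28.8% of a library). Symbols came from a GENCODE M21 name table, which matched 99.4% of identifiers.

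One model with a mean per group was fitted to all 12 libraries in edgeR 4.0.16 (R 4.3.3), after filterByExpr at a minimum count of 10 and a minimum total of 15, with TMM scaling. Each of 7 contrasts (the TGFβ effect and the construct effect, each within groups and averaged, and the interaction) was given the quasi-likelihood F test, robust version, and Benjamini-Hochberg adjustment over 12897 genes at 0.05. CPM are mean ± SD of 3 libraries. Intervals are 95%. The test was also tried on simulated counts.

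The 10 genes, the 9 pathway lists (209 genes, 190 tested) and the marker lists were chosen with earlier results of these data known. List genes are named where called in any contrast, up to 4 per list and contrast by adjusted p. Where fewer than 2 were called, the 2 with the smallest p for the averaged TGFβ effect are named. Atf4 and the genes that overlap members are named outside that rule. Single values of some genes in the lists are not reported here. Single changes tried were RLE scaling, unscaled library totals, limma-voom (limma 3.58.1), DESeq2 1.42.0, a stricter filter (1 CPM in 3 libraries and 50 reads in total) or none, the replicate number as a block, omission of each library, omission of the 3 libraries that stood apart, and fits of the compared groups only.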

Additional observations from a re-analysis of the deposited data

How the results depend on the processing

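Of 1728 values recomputed under alternatives, 1616 kept their direction and side of the threshold, or stayed within 1.5 times for a count, and the cause of the other differences was not tested. DESeq2 called 306 genes for TGFβ in mock cells, 295 in labelled Nnmt-OE cells and 26 for the averaged construct effect. With no filter on low counts, 13 genes were called for the construct without TGFβ and 19 for the averaged construct effect. The same setting called 2 of the 10 genes for TGFβ in mock cells (Mthfd1 added) and 4 for the averaged TGFβ effect (Shmt2 and Mthfd2 added). Fits of the compared groups only, which give no averaged effect or interaction, called 3 genes for the construct without TGFβ, 92 for TGFβ in mock cells and 351 in labelled Nnmt-OE cells, with 2 of the 10 (Psat1 and Mthfd2) in the last. Shmt2 also passed for the averaged TGFβ effect in DESeq2 (adjusted p of 0.0382) and limma-voom (adjusted p of 0.0463). As each library was left out, genes called ranged from 1 to 3 for the construct with TGFβ, 3 to 6 without it, 5 to 9 averaged, 97 to 305 for TGFβ in labelled Nnmt-OE cells, 98 to 188 in mock cells, and 473 to 649 averaged. Of the 10 genes, 1 to 5 were called for the averaged TGFβ effect: 5 without mock replicate 1 (Mthfd1l, Mthfd2 and Shmt2 added), and 1 (Asns) in the 6 fits that ended the Psat1 call.

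Signs changed only for estimates that were not called in the fit of all libraries. Without the 3 libraries that stood apart, log2 fold changes for the construct without TGFβ were 0.022 for Psat1, 0.081 for Shmt2 and 0.029 for Mthfd2. For the construct with TGFβ they were 0.0018 for Shmt1 and -0.0094 for Mthfd2. Averaged, they were 0.050 for Psat1, 0.038 for Shmt2, 0.036 for Mthfd1, 0.0097 for Mthfd2 and 0.061 for Mthfd1l. In the same fit TGFβ in mock cells gave -0.12 for Phgdh, and the interaction -0.084 for Shmt2 and -0.038 for Mthfd2. The averaged construct effect on Psat1 was 0.0062 with library totals and 0.0041 in limma-voom, and that on Shmt1 with TGFβ was 0.0053 in limma-voom. Over the fits that left out 1 library each, these changes of sign gave log2 ranges. The construct without TGFβ ranged from -0.0053 to 0.16 for Phgdh, -0.13 to 0.019 for Psat1, -0.18 to 0.078 for Shmt2, -0.31 to 0.026 for Mthfd2 and -0.033 to 0.32 for Mthfd1l. The construct with TGFβ ranged from -0.063 to 0.19 for Psat1, -0.14 to 0.095 for Psph, -0.080 to 0.078 for Shmt1, -0.100 to 0.019 for Shmt2 and -0.013 to 0.060 for Mthfd2. TGFβ in mock cells ranged from -0.064 to 0.12 for Phgdh and -0.021 to 0.32 for Mthfd2. The interaction ranged from -0.11 to 0.16 for Shmt2 and -0.015 to 0.32 for Mthfd2. The averaged TGFβ effect ranged from -0.029 to 0.19 for Mthfd1. The averaged construct effect ranged from -0.063 to 0.067 for Psat1, -0.10 to 0.025 for Shmt2, -0.12 to 0.097 for Mthfd1, -0.15 to 0.018 for Mthfd2 and -0.11 to 0.065 for Mthfd1l.

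The replicate numbers gave no sign of pairing the libraries: deviations of same-numbered libraries of different groups correlated with a median r of 0.0031 (18 pairs, 2 over 0.1), against 0.0035 for other numbers, and 5 of 12 libraries correlated best with their own number. With the replicate block, the averaged TGFβ effect was 0.39 for Asns (adjusted p of 0.00936) and 0.28 for Psat1 (adjusted p of 0.0343). That block turned the sign of Shmt1 for the construct with TGFβ, to 0.0040, and changed no call among the 10 genes.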
